A study of Mus musculus with 22 samples.

Results

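Granulation tissue formed in sponges of Mmp13-/- and WT mice was examined for 10 genes: 8 that are widely used to mark or instruct dendritic cells (Itgax, Flt3, Irf8, Batf3, Cd83, Fscn1, Cd209a and Ccr7) and the pair Itgb7 and Runx3. The genes are covered by 15 probe sets that the array annotation gives to 1 of them alone, of 34945 such probe sets for 18193 genes on the array. Ccr7, Itgb7 and Runx3 were chosen from their changes in these same arrays, so their values are given as a description and were not tested. The other 7 genes were tested. Viscose cellulose sponges, a scaffold for new tissue, had been placed under the dorsal skin of mice aged 5 to 8 weeks, which the methods give as males, and were removed after 7, 14 or 21 d. Mmp13-/- tissue was hybridized on 3 arrays at 7 d, 4 at 14 d and 4 at 21 d, and WT tissue on as many. Mmp13-/- mice lack the collagenase MMP-13 in every cell from birth, and the WT mice came from heterozygotes of the same line. The labels give a mixed C57BL/6 x 129 background for all mice, whereas the design text speaks of backcrossing to C57BL6, so passenger sequence around the deleted gene cannot be told apart from its loss. The design text gives 1 sample from each mouse, but no label numbers the animals, and p-values measure the spread between these arrays.

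Dendritic cells take up antigen in tissue, mature, and carry it to lymph nodes along gradients of the ligands of CCR7. FLT3 signalling and the transcription factors IRF8 and BATF3 direct their development, CD11c (Itgax) is the integrin chain by which they are usually recognised, and CD83 and fascin (Fscn1) mark mature cells. In mice CD11c is also made by many tissue macrophages, and fascin by fibroblasts and endothelial cells. Itgb7 encodes the beta7 integrin chain of lymphocytes and of some myeloid cells, and Runx3 a RUNX factor used by cytotoxic T cells, NK cells and dendritic cells.

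The arrays were hybridized in 2 series, which bear on every comparison between days. Series 1 (12 arrays, 2 µg of RNA) covers the whole of 7 d together with 3 of the 4 replicates per genotype at 14 d, and series 2 (10 arrays, 250 ng of RNA and another labelling kit) covers the fourth replicate (replicate 4) per genotype at 14 d together with the whole of 21 d. Values are log2 signals from RMA, and array medians lay between 4.16 and 4.27. The number of arrays limits the precision. A probe set is called dim here if its mean over the 22 arrays is under 4.22, the median of all 45037 probe sets tested. The Mmp13 signal, checked first, at 7 d averaged 8.37 in Mmp13-/- against 10.69 in WT tissue, and at all 3 days the highest Mmp13-/- array was below the lowest WT one, although whether its probe set lies in the deleted part is not known here. Differences come from 1 limma model with the 6 genotype-by-day groups and the series as terms, and a difference was called where its p, adjusted after Benjamini-Hochberg across the table, was under 0.05.

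The label of dendritic cells was set against other markers, of which some were dim and most were not. Of the measured genes, 2 of 6 were dim for type 1 dendritic cells, 2 of 7 for type 2 and monocyte-derived ones, 4 of 15 for mature or migratory ones, 2 of 7 for plasmacytoid ones and 1 of 3 for Langerhans cells. Xcr1 and Itgae, which define type 1 dendritic cells, were dim at 2.73 and 3.23, and the mean Cd209a signal was dim at 2.93. Cd207, which defines Langerhans cells, was dim at 3.74, as were Mgl2 at 3.80, Irf4 at 4.03 and Ccl17 at 4.16, while Clec10a, a lectin shared by type 2 dendritic cells and macrophages, was at 7.83. Among those not dim were Tlr3 at 6.48, Relb at 6.97, Cd86 at 6.83, Cd274 at 8.34, Bst2 at 9.62 and Epcam at 6.67, which other cells also make. Ccl22, listed for mature dendritic cells, was not dim either, with group means from 4.94 to 5.42. The same held for Zbtb46, listed for type 1 dendritic cells, with group means from 4.50 to 5.06. The macrophage markers Adgre1, Cd68 and Csf1r stood at 10.12, 11.68 and 11.90. These are mean log2 signals of different probe sets, whose levels cannot be set against each other, and they say only which markers were above the median probe set. The genes are therefore called by their names below. In bulk tissue, fewer cells of a type and less RNA per cell cannot be told apart.

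The promoters of Itgax, Itgb7 and Runx3 are shown because Itgax is the gene that was called, Itgb7 and Runx3 are the chosen genes with a sequence, and the Runx3 protein binds the RUNX core. Ccr7, with the largest genotype difference of the chosen genes, has no sequence in the table used. RefSeq sequence of build GRCm38.p6 was available for 8 of the 10 genes. Each line runs 5′ to 3′ on the strand of the gene, with 150 bases before and 30 after the start that the table uses, and capitals mark the RUNX core TGNGGT and the PU.1/ETS core GAGGAA on either strand. The Itgax stretch is chr7:128129400-128129579 on the plus strand, that of Itgb7 is chr15:102231906-102232085 on the minus strand, and that of Runx3 is chr4:135120495-135120674 on the plus strand.
Itgax: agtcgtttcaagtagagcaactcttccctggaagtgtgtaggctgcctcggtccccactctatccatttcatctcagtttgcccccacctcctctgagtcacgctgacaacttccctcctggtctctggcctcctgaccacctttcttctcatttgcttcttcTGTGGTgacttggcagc
Itgb7: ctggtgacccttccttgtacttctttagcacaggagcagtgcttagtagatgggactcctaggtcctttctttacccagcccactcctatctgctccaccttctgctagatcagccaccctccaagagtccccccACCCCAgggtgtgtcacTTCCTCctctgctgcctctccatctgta
Runx3: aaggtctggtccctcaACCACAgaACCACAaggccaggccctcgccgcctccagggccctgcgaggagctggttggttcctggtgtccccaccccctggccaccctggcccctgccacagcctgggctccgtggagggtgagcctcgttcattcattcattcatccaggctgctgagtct
In Itgax a RUNX core began at position 13, counted from 0 at the start. In Itgb7 a RUNX core began at -15 and an ETS core at 2, and in Runx3 RUNX cores began at -134 and -126. The ETS core did not overlap a RUNX core in these stretches. Over whole 300-base windows, the RUNX core was found in 6 of the 10 windows of the 8 genes (in Itgax, Flt3, Fscn1 and Itgb7, and in 1 of the 2 windows each of Irf8 and Runx3), against 45.8% of all 32851 windows of that length, and the ETS core in 2 of the 10 (Batf3 and Itgb7), against 28.3%. The ETS-IRF composite GGAANNGAA, which can overlap the ETS core's last letters, was found in 1 window, that of Cd209a (8.24% of all windows), and the IRF element GAAANNGAA (8.56%) and the NF-kappaB consensus (4.51%) in none. Such matches are letters in a window and not shown to be bound.

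**Figure D1:**
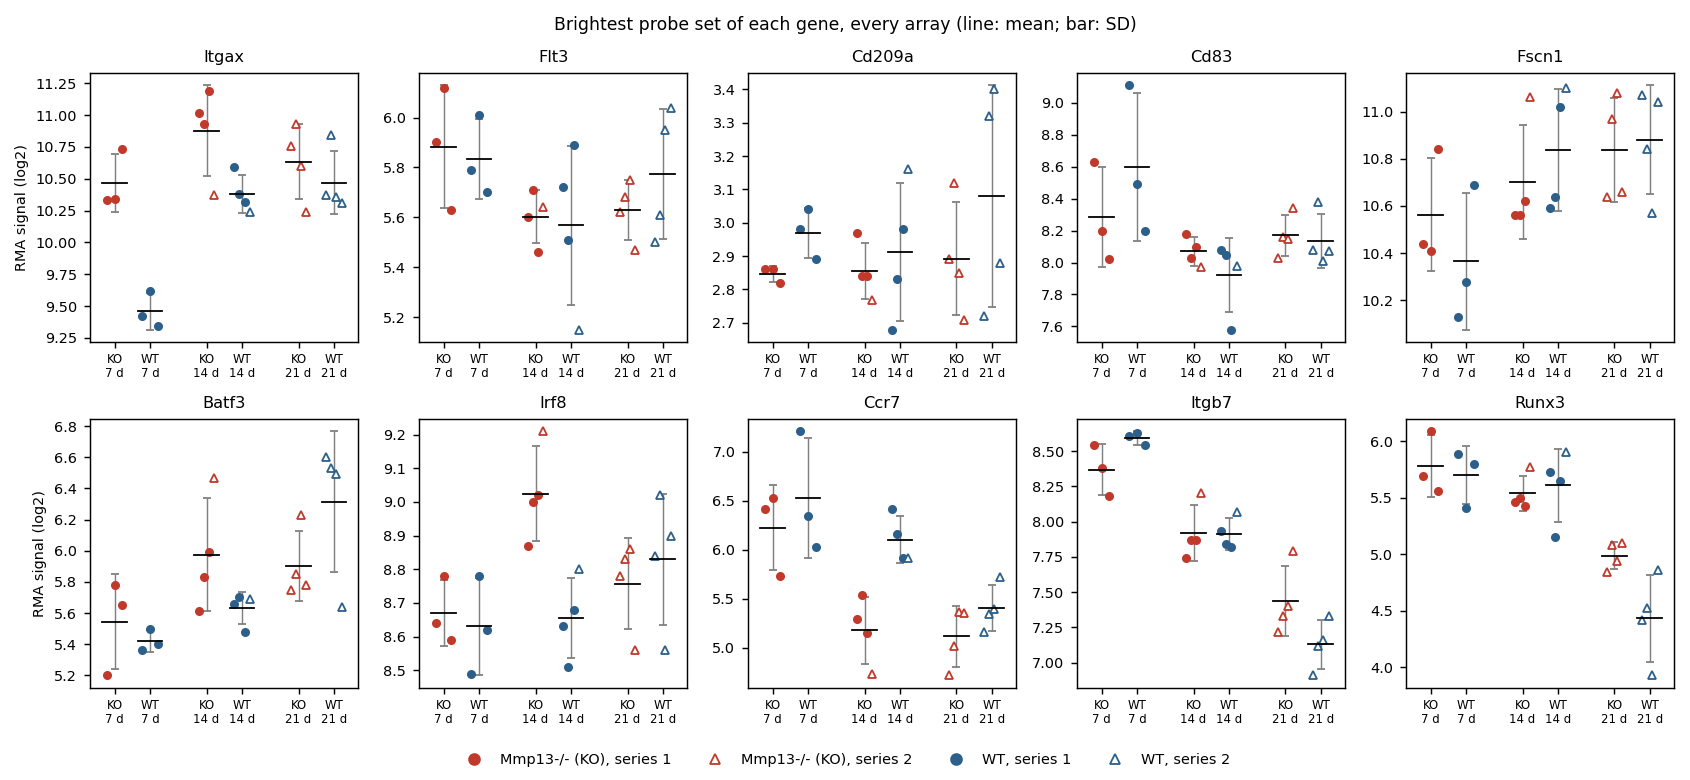
RMA signal (log2, vertical axis) of the brightest probe set of each of the 10 genes on every array, for Mmp13-/- (KO, red) and WT (blue) tissue at 7, 14 and 21 d. Filled circles are arrays of series 1 and open triangles arrays of series 2, lines are group means and bars SDs. Itgax lay between 10.33 and 10.73 on the KO arrays of 7 d and between 9.34 and 9.62 on the WT arrays, and the group means of Itgb7 were lower at each later day in both genotypes.

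Itgax, the CD11c chain that pairs with the beta2 integrin Itgb2, was higher in Mmp13-/- tissue. At 7 d its log2 signal was 10.33, 10.34 and 10.73 on the Mmp13-/- arrays, against 9.42, 9.62 and 9.34 on the WT arrays. At 14 d it was 11.02, 10.93, 11.19 and 10.37 in Mmp13-/- tissue, against 10.59, 10.38, 10.32 and 10.24 in WT tissue. At 21 d it was 10.76, 10.93, 10.60 and 10.24 in Mmp13-/- tissue, against 10.37, 10.84, 10.36 and 10.31 in WT tissue. The genotypes did not overlap at 7 d, overlapped at 14 d only through Mmp13-/- replicate 4, and overlapped at 21 d. Averaged over the 3 days, the log2 difference was 0.55 (1.47-fold, standard error 0.09), which was called by limma (adjusted p = 0.0181). An exact permutation test that exchanged genotypes within each day and series gave p = 0.00114 (two-sided, 56000 arrangements). The call was lost without the series term (0.55, adjusted p = 0.0613), on leaving out replicate 3 of 7 d from the Mmp13-/- arrays (0.51, adjusted p = 0.0625) or from the WT arrays (0.53, adjusted p = 0.0538), all from limma.

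The difference in Itgax was 1.01 at 7 d (2.01-fold, standard error 0.18, limma adjusted p = 0.08), 0.49 at 14 d (standard error 0.15, adjusted p = 0.909) and 0.16 at 21 d (standard error 0.15, adjusted p = 0.716), so no single day passed the threshold. At 7 d the call was made with the arrays of series 1 alone (adjusted p = 0.0274) and when replicate 4 of the Mmp13-/- arrays of 21 d was left out (adjusted p = 0.0341). The exact permutation p-values were 0.1 at 7 d, the smallest that 3 arrays against 3 allow, 0.0857 at 14 d and 0.429 at 21 d (two-sided, all arrays of a day exchanged). With genotypes exchanged within series at 14 d the exact permutation p was 0.05, the smallest that 40 arrangements allow. Within series 1 the difference at 14 d was 0.62, and the 1 array of each genotype in series 2 gave 0.13.

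Among the 7 genes, none was called between genotypes at 7 d (1 at an unadjusted p under 0.05, Itgax), where limma called 0.00888% of all probe sets (2.16% unadjusted). None was called at 14 d (2 unadjusted, Itgax and Irf8) or at 21 d (1 unadjusted, Batf3), where 0.0178% and 0.0488% of all probe sets were called (3.98% and 11.9% unadjusted). Over the mean of the 3 days 1 of 7 was called, Itgax, which was also the 1 at an unadjusted p under 0.05, against 0.0688% of all probe sets (6.56% unadjusted). In all, 2 of 70 gene-by-comparison values were called, and both were of Itgax. The median log2 difference of the 7 genes was 0.05, 0.15 and -0.07 at the 3 days, against -0.01, 0.01 and 0 over all probe sets.

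**Figure D2:**
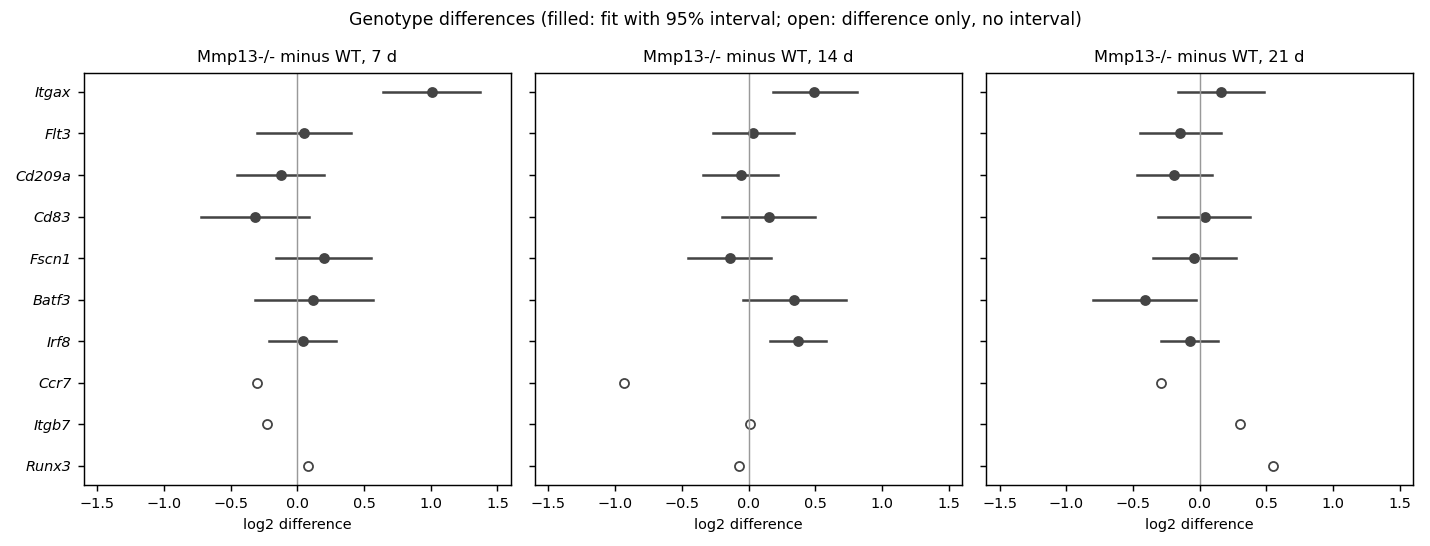
Log2 difference, Mmp13-/- minus WT (horizontal axis), of each gene at 7, 14 and 21 d from the limma model, with 95% intervals for the 7 tested genes (filled points) and without intervals for Ccr7, Itgb7 and Runx3 (open points), which were chosen for their changes. The interval of Itgax ran from 0.64 to 1.37 at 7 d and from -0.16 to 0.48 at 21 d.

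Markers of other cells were measured beside Itgax. The mean log2 signal of 10 macrophage markers per array ranged from 9.65 to 10.19 in Mmp13-/- and from 9.65 to 10.05 in WT tissue at 7 d, and none of the 10 was called between genotypes at any day (at an unadjusted p under 0.05, 1 at 7 d and 0 at 14 d and at 21 d). The mean of 7 genes of all leukocytes ranged from 11.30 to 11.51 in Mmp13-/- and from 11.20 to 11.37 in WT tissue at 7 d, from 11.31 to 11.46 and from 11.22 to 11.38 at 14 d, and from 11.10 to 11.33 and from 11.01 to 11.29 at 21 d. Over the mean of the 3 days all 7 of these genes had a positive genotype difference (median 0.08, against 0 over all probe sets), and none was called by limma, with Itgb2 (0.16) and Cd52 (0.22, adjusted p = 0.525) at an unadjusted p under 0.05. Itgb2, the partner chain of CD11c, at 7 d averaged 11.83 ± 0.05 in Mmp13-/- against 11.59 ± 0.25 in WT tissue (SD over 3 arrays each). Its difference of 0.23 (log2) was not called (adjusted p = 1 from limma). Its range in Mmp13-/- tissue (11.77 to 11.87) overlapped that in WT tissue (11.37 to 11.86). The part of macrophages or of all leukocytes in the Itgax difference was not tested.

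Itgax was also the member whose change from 7 to 14 d was called. In WT tissue it was higher by 1.03 at 14 d than at 7 d (2.04-fold, standard error 0.17, adjusted p = 0.00253 from limma), with every 14 d array (10.24 to 10.59) above every 7 d array (9.34 to 9.62). In Mmp13-/- tissue it was higher by 0.52, not called (standard error 0.17, limma adjusted p = 0.283), with 1 of the 4 arrays of 14 d (replicate 4, 10.37) inside the 7 d range. The exact permutation p was 0.0571 in WT tissue, the smallest that 4 arrays against 3 allow, and 0.114 in Mmp13-/- tissue (two-sided, both series exchanged together), and 0.1 in each genotype over the arrays of series 1, the smallest that 3 against 3 allow. The call in WT tissue was made in all 22 fits that left out 1 array (0.97 to 1.11). The difference between the genotypes in this change was -0.51 (standard error 0.23) and was not called (adjusted p = 1 from limma), so the change was not shown to differ between them.

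Of the 7 genes, none was called between 14 and 7 d in Mmp13-/- tissue (2 at an unadjusted p under 0.05, Itgax and Irf8), where limma called 0.628% of all probe sets (6.65% unadjusted), and 1 in WT tissue, Itgax (3 unadjusted, with Cd83 and Fscn1), where it called 1.7% (10.1% unadjusted). Between 21 and 14 d none was called in Mmp13-/- tissue (1 unadjusted, Irf8) or in WT tissue (0 unadjusted), against 0.0799% and 0.42% of all probe sets (13.7% and 14.1% unadjusted). No gene was called for a difference between the genotypes in either change (2 unadjusted in each, Itgax and Irf8 up to 14 d, Batf3 and Irf8 after it), and no probe set at all was (0% adjusted in both, 2.29% and 6.58% unadjusted). The 21 d values all come from series 2 and the step to them rests on 1 array of each genotype at 14 d in that series.

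**Figure D3:**
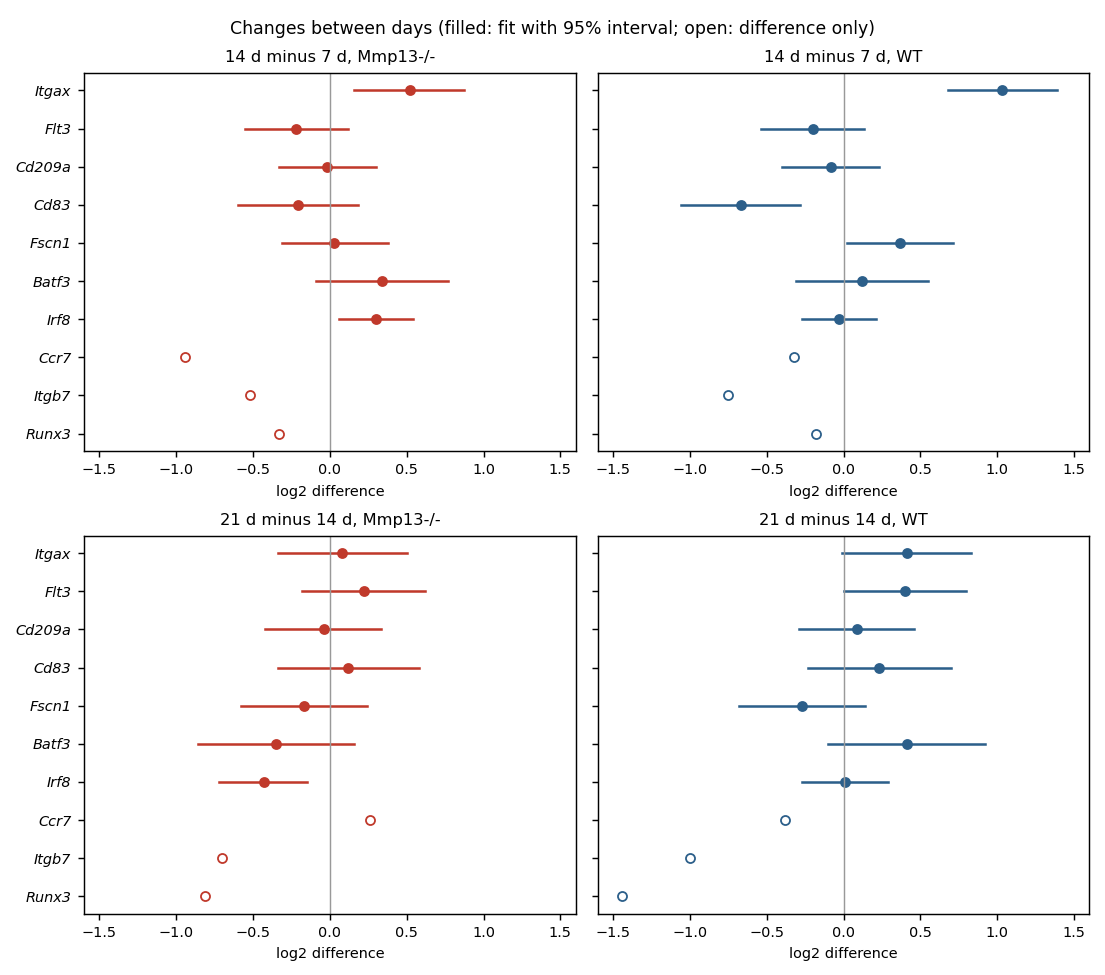
Log2 difference between consecutive days (horizontal axis) within Mmp13-/- (red, left) and WT (blue, right) tissue, from the limma model with the series as a term, with 95% intervals for the 7 tested genes (filled points) and none for the 3 chosen ones (open points). In WT tissue the point of Itgax lies at 1.03 between 14 and 7 d, and that of Runx3 (probe set 1440275_at) at -1.44 between 21 and 14 d.

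Irf8, the factor that commits progenitors to monocytes and dendritic cells, had its largest genotype difference at 14 d. Its brightest probe set read 8.64, 8.78 and 8.59 in Mmp13-/- tissue at 7 d, against 8.49, 8.78 and 8.62 in WT tissue. At 14 d it read 8.87, 9.0, 9.02 and 9.21 in Mmp13-/- tissue, against 8.63, 8.51, 8.68 and 8.80 in WT tissue. At 21 d it read 8.78, 8.83, 8.86 and 8.56 in Mmp13-/- tissue, against 8.84, 9.02, 8.56 and 8.90 in WT tissue. All Mmp13-/- arrays of 14 d lay above all WT arrays of that day, by a mean of 0.37 (standard error 0.10), which was not called (adjusted p = 0.722 from limma, with an exact permutation p of 0.0286, the smallest that 4 arrays against 4 allow, two-sided). Exchanged within series, the exact permutation p was 0.05, the smallest that 40 arrangements allow. The second Irf8 probe set had the same sign at 14 d (0.30, adjusted p = 0.999 from limma), but its groups overlapped. In Mmp13-/- tissue both probe sets were lower on every array of 21 d than on any of 14 d, with differences of -0.43 (adjusted p = 0.166 from limma) and -0.33 (adjusted p = 0.426).

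Batf3, which type 1 dendritic cells of mice require, had genotype differences of opposite sign at 14 and 21 d, neither of them called. At 21 d its log2 signal was 5.75, 5.85, 6.23 and 5.78 in Mmp13-/- tissue, against 6.60, 6.53, 6.49 and 5.64 in WT tissue. The 3 higher WT arrays stood above all Mmp13-/- arrays and WT replicate 4 below them, so the groups overlapped. This amounted to -0.41 (standard error 0.18, limma adjusted p = 0.383), and leaving out 1 array moved it between -0.64 (without WT 21 d replicate 4, adjusted p = 0.0754) and -0.32 (without WT 21 d replicate 1). At 14 d the sign was opposite, with 5.61, 5.83, 5.99 and 6.47 in Mmp13-/- tissue and 5.66, 5.70, 5.48 and 5.69 in WT tissue (0.34, adjusted p = 0.999 from limma). This difference was 0.20 without WT 14 d replicate 4, as it was within series 1 alone. The 1 array of each genotype in series 2 gave 0.78. The change from 14 to 21 d differed between the genotypes by -0.75 (standard error 0.26, adjusted p = 0.617 from limma), which was not called. At 7 d Batf3 read 5.2, 5.78 and 5.65 in Mmp13-/- and 5.36, 5.50 and 5.40 in WT tissue.

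Flt3, the growth factor receptor of dendritic cell progenitors, stayed between 5.15 and 6.12 on the 22 arrays. It averaged at 7 d 5.88 ± 0.25 in Mmp13-/- against 5.83 ± 0.16 in WT tissue (SD over 3 arrays each), 5.60 ± 0.11 and 5.57 ± 0.32 at 14 d, and 5.63 ± 0.12 and 5.78 ± 0.26 at 21 d (SD over 4 arrays each, Mmp13-/- ahead of WT). The genotype groups overlapped at each day, and the 95% interval of the mean difference over the 3 days ran from -0.20 to 0.16. Cd209a, a DC-SIGN homologue of monocyte-derived cells in mice, was dim on every array (2.68 to 3.40). Its Mmp13-/- arrays of 7 d (2.82 to 2.86) lay below those of WT tissue (2.89 to 3.04), a difference of -0.12 (adjusted p = 1 from limma) near the bottom of the scale. Of 7 C-type lectin genes near Cd209a or like it, 6 were dim too and none was called in any comparison (at most 1 in a comparison at an unadjusted p under 0.05).

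Cd83, a surface protein of mature dendritic cells and activated B cells, had its highest group means at 7 d. It read 8.63, 8.20 and 8.02 in Mmp13-/- tissue at 7 d, against 9.11, 8.49 and 8.20 in WT tissue. At 14 d it read 8.18, 8.03, 8.10 and 7.97 in Mmp13-/- tissue, against 8.08, 8.05, 7.58 and 7.98 in WT tissue. At 21 d it read 8.03, 8.16, 8.15 and 8.34 in Mmp13-/- tissue, against 8.08, 8.38, 8.01 and 8.07 in WT tissue. The genotypes overlapped at each day, and in WT tissue every 14 d array lay below every 7 d array. That difference was -0.67 (standard error 0.19) and missed the threshold (adjusted p = 0.0815 from limma), whereas it was called without WT 7 d replicate 3 (-0.87, adjusted p = 0.0289) and was -0.42 without WT 7 d replicate 1 (adjusted p = 0.34).

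Fscn1, which encodes the actin-bundling protein fascin of dendritic cell projections, overlapped between genotypes at each day. Its brightest probe set averaged at 7 d 10.56 ± 0.24 in Mmp13-/- against 10.37 ± 0.29 in WT tissue (SD over 3 arrays each), 10.70 ± 0.24 and 10.84 ± 0.26 at 14 d, and 10.84 ± 0.22 and 10.88 ± 0.23 at 21 d (SD over 4 arrays each, Mmp13-/- ahead of WT). The mean difference over the 3 days was 0.01, with a 95% interval from -0.18 to 0.19. Within 14 d its other 3 probe sets read lower in series 2. At 14 d the probe set 1448378_at was at 8.02, 7.93 and 8.04 in Mmp13-/- and 7.94, 8.04 and 8.26 in WT tissue of series 1, and at 6.86 in the Mmp13-/- and 7.02 in the WT array of series 2. The series term was -1.10, -1.70 and -0.58 for these 3 probe sets and 0.41 for the brightest one. No probe set of Fscn1 was called between genotypes or days.

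**Figure D4:**
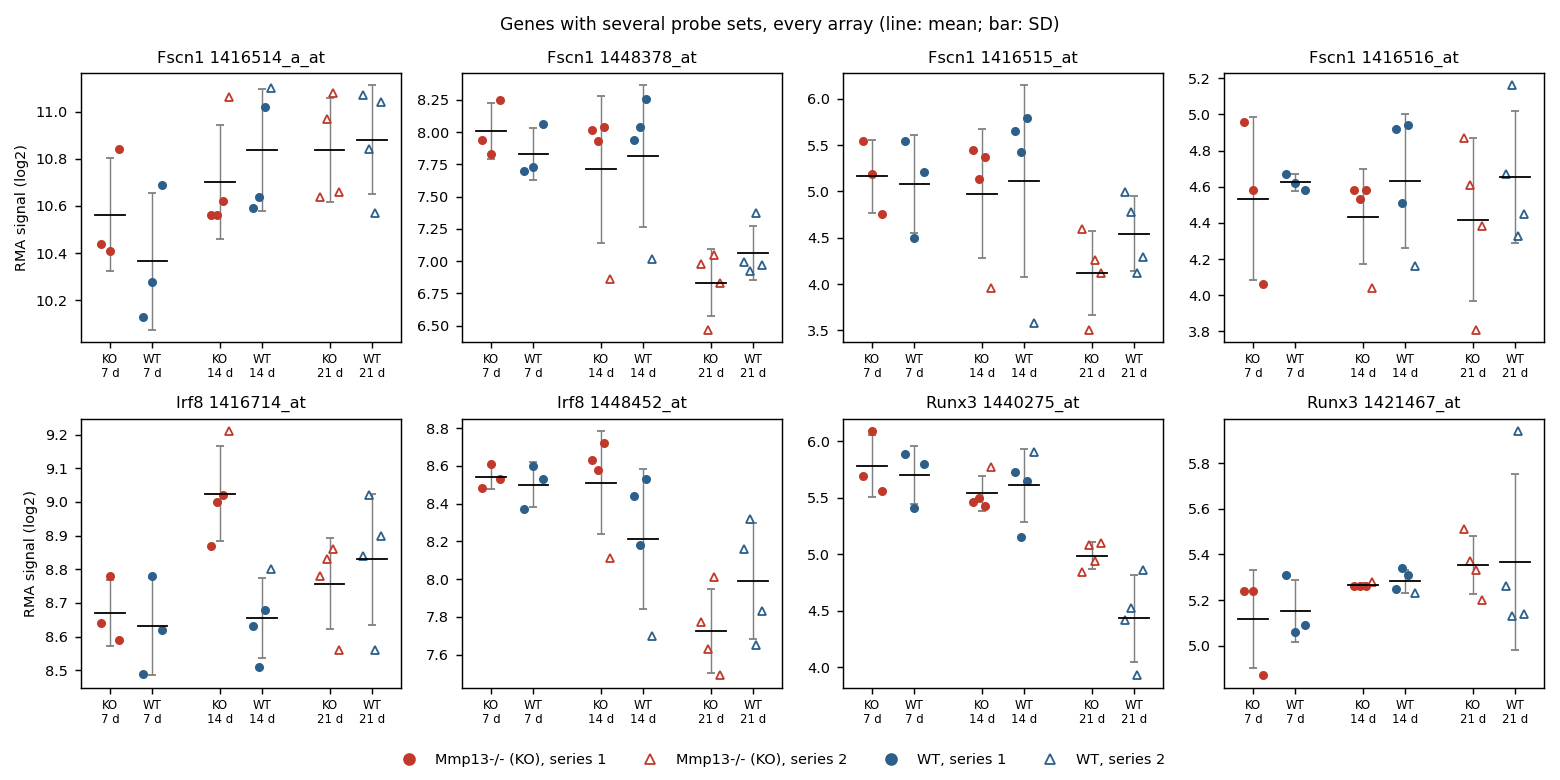
RMA signal (log2, vertical axis) on every array for the 8 probe sets of Fscn1, Irf8 and Runx3, with Mmp13-/- (KO, red) left of WT (blue) at each day, circles for series 1, triangles for series 2, lines for means and bars for SDs. Within 14 d, the series 2 arrays of Fscn1 1448378_at (6.86 and 7.02) stand below those of series 1 (7.93 to 8.26), while for Fscn1 1416514_a_at they are the highest.

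Ccr7, the receptor that guides mature dendritic cells and T cells to lymph nodes, was chosen for its change and is described only. It read 6.42, 6.53 and 5.73 in Mmp13-/- tissue at 7 d, against 7.21, 6.35 and 6.03 in WT tissue. At 14 d it read 5.29, 5.54, 5.15 and 4.73 in Mmp13-/- tissue, against 6.42, 6.16, 5.92 and 5.92 in WT tissue. At 21 d it read 4.72, 5.02, 5.37 and 5.36 in Mmp13-/- tissue, against 5.16, 5.35, 5.40 and 5.72 in WT tissue. The genotypes were apart at 14 d alone, by -0.93 (0.526-fold), with -0.84 within series 1 and -1.19 between the arrays of series 2. Between 14 and 7 d the difference was -0.94 in Mmp13-/- tissue (-1.19 to -0.79 on leaving out 1 array) and -0.32 in WT tissue, where it was 0.02 without WT 7 d replicate 1 and -0.57 without WT 7 d replicate 3. Between 21 and 14 d it was 0.26 in Mmp13-/- and -0.38 in WT tissue, and -0.06 and -0.70 without the series term. The WT value of this step was -0.16 when replicate 4 of 14 d was left out of the WT arrays, and -0.51 when it was left out of the Mmp13-/- arrays. Its ligand genes Ccl19 and Ccl21a have no probe set of their own here. Ackr4, which encodes a scavenging receptor of the same ligands, was not called in any comparison and had none at an unadjusted p under 0.05.

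Itgb7 was also chosen for its change, which ran with time in both genotypes. It read 8.54, 8.38 and 8.18 in Mmp13-/- tissue at 7 d, against 8.61, 8.63 and 8.54 in WT tissue. At 14 d it read 7.74, 7.87, 7.87 and 8.20 in Mmp13-/- tissue, against 7.93, 7.84, 7.82 and 8.07 in WT tissue. At 21 d it read 7.22, 7.33, 7.40 and 7.79 in Mmp13-/- tissue, against 6.91, 7.12, 7.16 and 7.33 in WT tissue. In WT tissue each day lay wholly below the day before, by -0.75 at 14 d and -1.0 at 21 d, and in Mmp13-/- tissue the steps were -0.52 and -0.70 with overlapping groups. The genotype difference was -0.23 at 7 d, 0.01 at 14 d and 0.30 at 21 d. Within series 2, where 14 d has 1 array of each genotype, the last step came to -0.77 for Mmp13-/- and -0.94 for WT tissue.

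Partners and ligands of the beta7 chain were measured beside it. Itga4, whose product forms the alpha4beta7 integrin with it, averaged at 7 d 7.23 ± 0.15 in Mmp13-/- against 7.22 ± 0.07 in WT tissue (SD over 3 arrays each), 7.74 ± 0.11 and 7.46 ± 0.17 at 14 d, and 8.10 ± 0.30 and 8.08 ± 0.14 at 21 d (SD over 4 arrays each, Mmp13-/- ahead of WT). Its differences between days were all positive, and none was called (0.44 in Mmp13-/- tissue between 14 and 7 d, adjusted p = 0.215 from limma). Itgae, the other alpha partner, and the ligand genes Madcam1 and Cdh1 were dim at 3.23, 3.33 and 4.15. None of the 6 genes of this list was called in any of the 10 comparisons, with at most 3 in a comparison at an unadjusted p under 0.05.

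Runx3, the third gene chosen for its change, was lowest at 21 d. Its brightest probe set, 1440275_at, read 5.69, 6.09 and 5.56 in Mmp13-/- tissue at 7 d, against 5.89, 5.41 and 5.80 in WT tissue. At 14 d it read 5.46, 5.50, 5.43 and 5.77 in Mmp13-/- tissue, against 5.73, 5.15, 5.65 and 5.91 in WT tissue. At 21 d it read 4.84, 5.08, 4.94 and 5.10 in Mmp13-/- tissue, against 4.42, 4.53, 3.93 and 4.86 in WT tissue. All 21 d arrays lay below all 14 d arrays of their genotype, by -0.81 in Mmp13-/- and -1.44 in WT tissue, or by -0.55 and -1.18 without the series term. Within series 2 the same step came to -0.78 for Mmp13-/- and -1.48 for WT tissue. At 21 d Mmp13-/- tissue was higher by 0.55, and the groups overlapped through WT replicate 4 (4.86). The second Runx3 probe set, 1421467_at, did not follow, with differences between 21 and 14 d of 0.11 in Mmp13-/- and 0.10 in WT tissue. Its group means were highest at 21 d, at 5.35 in Mmp13-/- and 5.37 in WT tissue. The relatives Runx1 and Cbfb were not called in any comparison, with at most 1 at an unadjusted p under 0.05.

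Markers of T and NK cells, which also make Itgb7 and Runx3, were followed over the same days. The mean log2 signal of 11 T cell markers per array ranged from 4.38 to 4.66 at 7 d, 4.53 to 4.62 at 14 d and 4.46 to 4.80 at 21 d in Mmp13-/- tissue, and from 4.40 to 4.75, 4.37 to 4.69 and 4.59 to 4.94 in WT tissue. Of these 11, 6 were dim. Of the defining markers, Cd3g was dim at 3.40, while Cd3e and Cd3d were at 5.51 and 4.72. The T cell ranges of 21 d overlapped those of 14 d in both genotypes. From limma, 7 of the 11 differences between 21 and 14 d were positive in Mmp13-/- and 9 of 11 in WT tissue. Their medians were 0.13 and 0.32, against 0.02 and 0.03 over all probe sets. The mean of 6 NK cell markers ranged from 4.79 to 6.45 at 7 d, 5.19 to 5.66 at 14 d and 4.15 to 5.10 at 21 d in Mmp13-/- tissue, and from 4.90 to 5.64, 4.85 to 6.10 and 4.41 to 4.73 in WT tissue. This plain mean was lower on every 21 d array than on any 14 d array in both genotypes, but its members did not move together. In the limma model, which accounts for the series, 3 of the 6 differences between 21 and 14 d were positive in Mmp13-/- and 2 of 6 in WT tissue. Gzma, a granzyme, had differences of -1.91 and -1.81, and Klrk1, the NKG2D receptor, of 0.99 and 0.07, none called. The part of T cells or of NK cells in the Itgb7 and Runx3 levels was not tested. No T or NK cell marker was called in any comparison (at most 3 and 2 in a comparison at an unadjusted p under 0.05).

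Across the 22 arrays, which share days and series, Itgb7 and Runx3 followed each other most closely of the 45 gene pairs (Pearson r = 0.85), and r was 0.27 over the residuals left after groups and series. Both genes, like Ccr7, were chosen for their changes in these arrays, so the rank of such a pair can follow from that choice. Runx3 stands here for its probe set 1440275_at alone. Ccr7 followed Itgb7 at 0.68 (residuals 0.56) and Cd83 at 0.52 (residuals 0.72). The lowest value was between Batf3 and Itgb7 at -0.67 (residuals -0.32). These are descriptions over arrays of 6 groups, in which a shared course over the days raises r. Among 11789 genes with a mean at or above the median probe set, those most like Itgb7 were Slfn2 (0.96), Dok2 (0.95), Arf6 (0.94), Stx11 (0.93) and Noct (0.93), and their residual r ran from 0.44 to 0.77. Those most like Runx3 were Lrrfip1 (0.93), Seh1l (0.92), Pgk1 (0.91), Ptpn12 (0.90) and Ero1a (0.90), with residual r from 0.51 to 0.78. For Ccr7 they were Xdh (0.91), Ms4a8a (0.88), Fas (0.86), Sbsn (0.86) and Dmkn (0.85), with residual r from 0.47 to 0.82. For the dim Cd209a no gene passed 0.74 (Gosr2, Fam161a, Shld2, Med22 and Brpf3, 0.72 to 0.74).

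Other genes of dendritic cells were counted from lists of related genes. Of 15 genes of mature or migratory dendritic cells, Cd86, the costimulatory ligand of T cells, was called lower at 14 d than at 7 d in both genotypes, by -0.75 in Mmp13-/- (adjusted p = 0.0273 from limma) and -0.97 in WT tissue (adjusted p = 0.00214). Cd274, which encodes PD-L1, was called lower in WT tissue (-0.72, adjusted p = 0.0499 from limma), with -0.69 in Mmp13-/- tissue (adjusted p = 0.116). Without the series term the calls of Cd274 in WT tissue (adjusted p = 0.0823) and of Cd86 in Mmp13-/- tissue (adjusted p = 0.146) were lost. Between 21 and 14 d Cd40 (-1.40, adjusted p = 0.0497) and Marcksl1 (-0.85, adjusted p = 0.0485) were called lower in WT tissue by limma, with -1.01 (adjusted p = 0.157) and -0.60 (adjusted p = 0.161) in Mmp13-/- tissue. With the replicate block neither was called (adjusted p = 0.222 for Cd40 and 0.254 for Marcksl1). The median of the list was -0.41 in Mmp13-/- and -0.35 in WT tissue between 14 and 7 d, against 0 and -0.01 over all probe sets, and 0 and 3 of the 15 values were positive. Between 21 and 14 d the median was -0.14 in Mmp13-/- and -0.36 in WT tissue, against 0.02 and 0.03, and 7 and 4 of the 15 values were positive. Among the positive ones was the dim Ccl17, at 1.09 and 0.86, neither of them called (adjusted p = 0.111 and 0.153 from limma). No gene of the list was called between genotypes at any day (at an unadjusted p under 0.05, 0 at 7 d, 0 at 14 d and 1 at 21 d). The median genotype difference of the list was -0.07 at 7 d (5 of 15 positive), -0.15 at 14 d (4 positive) and 0.18 at 21 d (13 positive). The mean over its genes ranged from 6.22 to 6.62 on the Mmp13-/- and from 6.43 to 6.70 on the WT arrays of 7 d. It ranged from 5.94 to 6.15 and from 6.09 to 6.27 at 14 d, and from 5.99 to 6.04 and from 5.74 to 5.95 at 21 d, Mmp13-/- ahead of WT.

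Of 6 measured genes of type 1 dendritic cells, Cadm1 was called for the mean genotype difference over the 3 days (2.18, adjusted p = 0.0164 from limma), and it is an adhesion molecule that many tissues make. At 7 d it averaged 8.72 in Mmp13-/- against 5.88 in WT tissue, while Xcr1 averaged 2.63 and 2.64. Of 7 genes of type 2 and monocyte-derived dendritic cells, Klf4 was called lower at 14 d than at 7 d in Mmp13-/- tissue (-1.05, adjusted p = 0.0399 from limma), with -0.90 in WT tissue (adjusted p = 0.0568), and its product is also made by macrophages and epithelium. Of 6 measured genes of the FLT3 and colony-stimulating factor systems, Csf2ra, a receptor chain for GM-CSF, was called higher at 14 d than at 7 d in Mmp13-/- tissue (0.66, adjusted p = 0.00851 from limma), with 0.44 in WT tissue (adjusted p = 0.0614). Its call was lost without the series term (0.37, adjusted p = 1). None of 12 measured factors of dendritic cell development, 8 genes of antigen presentation, 7 of plasmacytoid dendritic cells or 3 of Langerhans cells was called in any of the 10 comparisons, with at most 4, 1, 3 and 1 in a comparison at an unadjusted p under 0.05. All 8 antigen presentation genes had a positive mean genotype difference (median 0.14, against 0 over all probe sets), none of them called.

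The other lists held cells that could contribute the same transcripts. Mertk, an engulfment receptor of macrophages, was called higher at 14 d than at 7 d in Mmp13-/- tissue (0.68, adjusted p = 0.0228 from limma) and in WT tissue (0.57, adjusted p = 0.0379). The 10 macrophage genes were split over this step. In each genotype 5 differences were positive and 5 negative, with medians of 0.06 in Mmp13-/- and 0.01 in WT tissue. Kit was called higher at 14 d in WT tissue (0.99, adjusted p = 0.0396 from limma), with 0.11 in Mmp13-/- tissue, among 6 mast cell genes. The other 5 had negative differences in both genotypes, and the median of the 6 was -0.37 in Mmp13-/- and -0.13 in WT tissue. Of 5 fibroblast genes, Lum was called lower in Mmp13-/- tissue at 14 d (-0.94, adjusted p = 0.0274 from limma) and over the 3 days (-0.61, adjusted p = 0.0111), Dcn lower at 14 d than at 7 d in Mmp13-/- tissue (-0.48, adjusted p = 0.0128, with -0.03 in WT tissue) and Pdgfra higher at 14 d in WT tissue (0.75, adjusted p = 0.00842, with -0.02 in Mmp13-/- tissue). Without the series term the calls of Kit (adjusted p = 0.0703), of Lum at 14 d (0.0706) and of Pdgfra (0.074) were lost. A call in 1 genotype does not show that the change differs between them. In 14 of the 21 lists no gene was called in any comparison, among them 6 measured genes of B and plasma cells, 6 of neutrophils, 7 of all leukocytes and 4 of the CD11c partner and its ligands (at most 2, 3, 2 and 1 in a comparison at an unadjusted p under 0.05).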

How the data were processed

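The authors normalized 22 Affymetrix mouse arrays by RMA in Chipster, after quality checks, and used linear models for their tests. Deposited were log2 signals for each probe set. The methods speak of normalization across chips, and give neither an RMA version nor whether both hybridization series were in 1 run. RMA ties the arrays to 1 distribution, so a change shared by most probe sets cannot be seen.

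From these values, 64 control probe sets were left out and 45037 were tested with R 4.3.3 and limma 3.58.1 (lmFit, eBayes, 15 residual and 4.57 prior degrees of freedom) with 6 group means and the hybridization series, and no filter. No gene passed or failed a filter on low values. Exact permutation tests used the group means and exchanged all arrays of both groups, or, where stated, those within a series (added after seeing the data). A gene is represented by its brightest probe set that the platform annotation, which can be old, gives to it alone. The steps were tested on simulated data. The alternatives were no series term, each series alone (series 2 alone was chosen after seeing the data), the arrays of the days compared, median centring, no dim probe sets, the mean of all probe sets, a replicate block and leaving out each array.

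Named are every member, genes of the 21 lists that were called or are among the first 3 of a list, and the 5 genes most like each of 4 members. Tlr3, Zbtb46, Cd52, Cdh1 and Gzma are named outside that rule. Not every gene among the first 3 of a list is named. The members and lists were chosen with earlier results of these data known.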

Additional observations from a re-analysis of the deposited data

Results flagged for a closer look

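In 9 of 60 groups of 4 arrays, 1 array was flagged for a gap to the other 3 that was large against the range of its group (chance flags about 1 in 20 such groups, each gene's probe sets counted separately). Itgax in WT tissue at 21 d was at 10.84 in replicate 2, against 10.31 to 10.37. Batf3 in WT tissue at 21 d was at 5.64 in replicate 4, against 6.49 to 6.60.

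Of the 9, 5 were replicate 4 of 14 d, the array of its group that lies in series 2. For Fscn1 in Mmp13-/- tissue it was at 11.06 against 10.56 to 10.62 (probe set 1416514_a_at), 6.86 against 7.93 to 8.04 (1448378_at) and 4.04 against 4.53 to 4.58 (1416516_at), and in WT tissue at 3.58 against 5.43 to 5.79 (1416515_at). For Runx3 1421467_at in Mmp13-/- tissue it was at 5.28, where the other 3 arrays were all at 5.26, so this flag rests on the last decimal of the values. The remaining arrays were WT replicate 3 of 21 d, at 7.37 against 6.92 to 6.99 for Fscn1 1448378_at and at 5.94 against 5.13 to 5.26 for Runx3 1421467_at.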

How the results depend on the processing

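Of 2013 values of the 7 tested genes under alternatives, 1911 kept their direction and side of the threshold, 93 changed sign with neither value called, 3 were no longer called, 6 were newly called, and none that was called changed sign. Of 867 values of Ccr7, Itgb7 and Runx3, 12 moved by 1 SD or more. Without the series term the mean Itgax difference over the 3 days was 0.55 and not called (adjusted p = 0.0613 from limma), so 0 genes were called there, and 1 gene was called between 21 and 14 d in WT tissue, Batf3 (0.68, adjusted p = 0.0316). Over all probe sets, that fit called 2523 between 21 and 14 d in Mmp13-/- and 4657 in WT tissue, against 36 and 189 with the term. With series 1 alone, Itgax was called at 7 d (1.01, adjusted p = 0.0274), so the count was 1. Between 14 and 7 d in WT tissue 2 genes were called without dim probe sets (Itgax and Cd83), and 2 with the replicate block. Leaving out each array in turn gave Itgax differences of 0.88 to 1.09 at 7 d and 0.51 to 0.60 over the 3 days, and counts of 0 to 1 at 7 d, 0 to 1 over the 3 days and 1 to 2 between 14 and 7 d in WT tissue. Itgb7 and Runx3 between 21 and 14 d moved to -0.49 and -0.55 in Mmp13-/- and to -0.79 and -1.18 in WT tissue without the series term.

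The replicate numbers of the labels showed no consistent pairing of the samples. The correlation of same-numbered deviations ran from -0.20 to 0.50 over 10 pairs of arrays, leaving out replicate 4 of 14 d, where the fit fixes it. With so few arrays per group, such a check cannot exclude a pairing. With the replicate block, 4 probe sets were called between 21 and 14 d in Mmp13-/- and 1 in WT tissue, against 36 and 189 without it.

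Depth has no counterpart on arrays. Cd209a, at a mean of 2.93, lies near the bottom of the scale. The other dim genes lie below the median probe set (4.22), some of them just below it, such as Ccl17 at 4.16. The step to 21 d depends on 2 arrays of 14 d in series 2.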
